A study of Rattus norvegicus with 10 samples.

Results

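The small leucine-rich proteoglycans are a family of secreted matrix proteins, and 9 of them were considered here: decorin (Dcn), biglycan (Bgn), asporin (Aspn), fibromodulin (Fmod), lumican (Lum), prolargin (Prelp), keratocan (Kera), osteomodulin (Omd) and osteoglycin (Ogn). A member was taken to be measured where the platform annotation gave its symbol alone to a probe set. On this rule 8 of the 9 genes were measured, by 12 probe sets, out of 14217 genes and 20826 probe sets with 1 symbol. Kera had no such probe set and is not analysed here. Ogn was read by 4 probe sets, Aspn by 2 and the other 6 genes by 1 each. The family was chosen by the mean final minus basal difference of signal on these same 10 arrays, so those differences are given as a description, with no test.

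The data came from 5 mammary tumours of female Sprague-Dawley rats, each raised with the chemical carcinogen DMBA, 7,12-dimethylbenz(a)anthracene, swallowed once at 100 mg/kg, and picked as Bloom-Richardson grade II. Both groups therefore carry the carcinogen. The final samples (n = 5) were taken at sacrifice at 19 weeks of age, in the 7th week after the biopsy, after 6 weeks of hydroxytyrosol, an olive phenol, at 0.5 mg/kg by gavage on 5 days of each week. The basal samples (n = 5) were Trucut needle biopsies of the same 5 tumours at 12 weeks of age and a volume of 2 cm3, before any hydroxytyrosol. The sample labels name the final piece as total tumour and the design text names a Trucut piece at both moments. Untreated tumours of the later age were not analysed here, so treatment, age, tumour growth and the way of sampling cannot be told apart.

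Small leucine-rich proteoglycans carry tandem leucine-rich repeats between cysteine clusters, and most carry chondroitin, dermatan or keratan sulphate chains. They bind collagen fibrils, set fibril diameter and spacing, and hold growth factors such as TGF-beta in the matrix. In the mammary gland they are known as products of stromal fibroblasts rather than of the epithelium, and decorin is known as a ligand that damps several receptor tyrosine kinases. Class I holds decorin, biglycan and asporin, class II fibromodulin, lumican, prolargin, keratocan and osteomodulin, and class III osteoglycin.

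The deposited values are Affymetrix signals on the log2 scale after Robust Multichip Average (RMA), so a difference of 1 is a doubling of signal. The array medians lay between 7.75 and 7.80 in final arrays and between 7.67 and 7.79 in basal arrays. BioB, a bacterial spike-in that the study took as its measure of sensitivity, averaged 8.04 over the 10 arrays, and a mean signal under 5.14 was treated as dim. The luminal epithelial markers bore out the labelled tissue for most genes: Krt8 averaged 12.30 ± 0.30 in final and 12.24 ± 0.32 in basal arrays (SD, n = 5 each), Epcam averaged 12.86 ± 0.20 in final and 12.85 ± 0.13 in basal arrays (SD, n = 5 each), and 15 of 17 markers passed the dim filter, Foxa1 and Esr1 being the dim ones. Tumour 45D3 stood apart. Hexokinase probe sets at the 3′ end were brighter than those at the 5′ end by 0.89 in its final array and by 2.36 in its basal array, the largest gap of the 10 arrays and a sign of RNA decay. The deviations of its final and basal arrays from their group means had a correlation over probe sets of -0.16, against 0.17 to 0.72 in the other 4 tumours, and its best match was the array of 51I1. That its 2 arrays come from 1 tumour, and which of them is the final one, rests on the labels alone. With the labels of these 2 arrays exchanged, every 45D3 difference given here would change sign, so results are given with and without this tumour. The basal array of 67D3 also had a high hexokinase difference (2.03), and the remaining 8 arrays lay at or below 1.29.

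Most of the family lies in 3 clusters of neighbouring genes in the rat genome (RefSeq, GRCr8). Ogn, Omd and Aspn follow each other on chromosome 17, Dcn, Lum and Kera on chromosome 7, and Prelp and Fmod on chromosome 13, while Bgn lies alone on the X chromosome. RefSeq promoter windows, from 250 bases before to 50 after a start site, were found for 6 of the 9 genes (Aspn, Fmod, Lum, Kera, Omd and Ogn). The upstream sequence of the 3 neighbours on chromosome 17, whose signals moved most alike, is shown next to that of Fmod, whose signal moved least like theirs. Only the bases outside the annotated gene are printed, each on its gene's strand, and capitals mark motif matches. The Ogn piece lies at chr17:15259168-15259245 (minus strand), the Aspn piece at chr17:15310568-15310719 (minus strand), the Omd piece at chr17:15274871-15275120 (minus strand) and the Fmod piece at chr13:48045317-48045566 (plus strand).
Ogn: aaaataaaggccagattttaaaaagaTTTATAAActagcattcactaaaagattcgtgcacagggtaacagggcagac
Omd: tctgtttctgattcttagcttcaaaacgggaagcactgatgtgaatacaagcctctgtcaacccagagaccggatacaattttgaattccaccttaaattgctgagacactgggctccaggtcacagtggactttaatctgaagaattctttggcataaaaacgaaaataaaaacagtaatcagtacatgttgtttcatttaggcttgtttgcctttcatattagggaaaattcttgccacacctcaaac
Aspn: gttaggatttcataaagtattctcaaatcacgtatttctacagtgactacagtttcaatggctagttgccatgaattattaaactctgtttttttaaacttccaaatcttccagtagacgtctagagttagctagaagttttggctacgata
Fmod: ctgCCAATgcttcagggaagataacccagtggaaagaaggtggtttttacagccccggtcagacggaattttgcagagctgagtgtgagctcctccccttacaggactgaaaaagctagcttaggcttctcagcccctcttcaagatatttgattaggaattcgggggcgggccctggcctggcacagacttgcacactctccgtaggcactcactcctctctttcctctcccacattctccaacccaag

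The motifs searched, on both strands, were TATAAA (the TATA box), CCAAT (the CCAAT box), CANNTG (the E-box), TGANTCA (the AP-1 site) and CAGACA (the SMAD element). The capitals in the Ogn piece are 2 overlapping TATAAA matches, 1 on each strand, and those in the Fmod piece are 1 CCAAT match. The printed Omd and Aspn pieces held no match to these letters. Over the whole windows of 300 bases, TATAAA was present in 1 of the 6 members (Ogn), against 14.2% of all 33465 windows, and CCAAT in 3 of 6 (Fmod, Lum and Kera), against 37.5%. CANNTG was present in 4 of 6, against 72.1%. TGANTCA was present in 0 of 6, against 7.33%, and CAGACA in 0 of 6, against 21.1%. A match describes letters only and is not a binding site.

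All 8 measured members had a higher mean signal in final than in basal arrays, by 0.39 (Bgn) to 2.28 (Ogn), with a median difference of 0.80. The same direction of the mean held for 47.9% of the 10839 genes past the dim filter, whose median difference was -0.01. Without Ogn and Aspn, the other 6 members were also higher in the mean, by 0.39 to 1.12, with a median of 0.62. Each of the 8 genes was higher in 4 of 5 tumours and none in all 5, where 16.7% of genes were higher in exactly 4 tumours and 3.52% in all 5. A mean difference of 1 or more was seen in Ogn, Aspn and Omd, and in 0.784% of genes. Final arrays did not all lie above basal arrays in any of the 8 genes, as they did in 0.111% of genes. These counts come from the contrast on which the family was picked, and nothing is read from them. Since the pieces are bulk tissue, more cells of a type and more RNA per cell in the final pieces cannot be told apart.

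In the fit over all 18625 probe sets past the dim filter (limma, tumour as a block, Benjamini-Hochberg), 0 passed an adjusted p of 0.05 (0%), members included, and 1494 had an unadjusted p under 0.05. The methods' t-test for paired samples also left 0 after adjustment, with 1394 at an unadjusted p under 0.05. These p-values set the mean difference against the spread of the final minus basal differences over the 5 tumours, which limma moderates with that of other probe sets. Of the 8 measured members 7 passed the dim filter. Aspn, with a basal mean of 5.04 under the cutoff, passed it through its final arrays. Omd did not pass the filter, with a mean of 5.07 just under the cutoff of 5.14.

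Decorin, the class I proteoglycan that binds fibrillar collagen and TGF-beta, had log2 signals of 12.59 in 66D2, 13.00 in 67D3, 12.59 in 49I1, 12.97 in 51I1 and 11.43 in 45D3 in final arrays. In basal arrays it had 9.71, 11.96, 11.76, 12.03 and 12.46 in that order of tumours. The final value of 45D3 lay below the other 4, and the basal value of 66D2 lay far below the other 4. The groups overlapped through 45D3, whose final piece was the lowest final array and whose biopsy was the highest basal array. The mean was 12.51 ± 0.64 in final and 11.58 ± 1.08 in basal arrays (SD, n = 5 each), a difference of 0.93 (SE 0.49), or 1.91-fold. That difference was 1.42 without 45D3 and 0.44 without 66D2.

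Biglycan, the closest relative of decorin and a ligand of Toll-like receptors, had final signals of 9.94 in 66D2, 9.96 in 67D3, 10.26 in 49I1, 10.64 in 51I1 and 8.33 in 45D3. Its basal signals were 9.35, 9.34, 9.45, 9.08 and 9.95 in that order of tumours. Its final arrays spread over 2.31 from lowest to highest and its biopsies over 0.87, the narrowest basal spread of the 8 members. The mean was 9.83 ± 0.88 in final and 9.43 ± 0.32 in basal arrays (SD, n = 5 each), a difference of 0.39 (SE 0.42), or 1.31-fold. It was 0.90 without 45D3 and 0.10 without 51I1.

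Asporin, a class I member that binds collagen and TGF-beta and lacks the chain attachment site of decorin, was dimmer. Its brighter probe set had final signals of 7.16 in 66D2, 8.23 in 67D3, 6.72 in 49I1, 8.17 in 51I1 and 4.36 in 45D3. The basal signals were 4.59, 5.28, 4.96, 4.33 and 6.01 in that order of tumours. Of these, 1 final array and 3 basal arrays lay under the dim cutoff, and 3 final and 5 basal arrays lay under BioB, so the contrast is one of dim signal, for which no fold is given. The difference was 1.89 (SE 0.74), or 2.78 without 45D3, and 1.74 with dim values raised to the cutoff. The second probe set of Aspn differed by 1.91 (SE 0.81), or by 1.61 with dim values raised to the cutoff. It followed the first over the arrays (r = 0.98, n = 10 arrays).

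**Figure D1:**
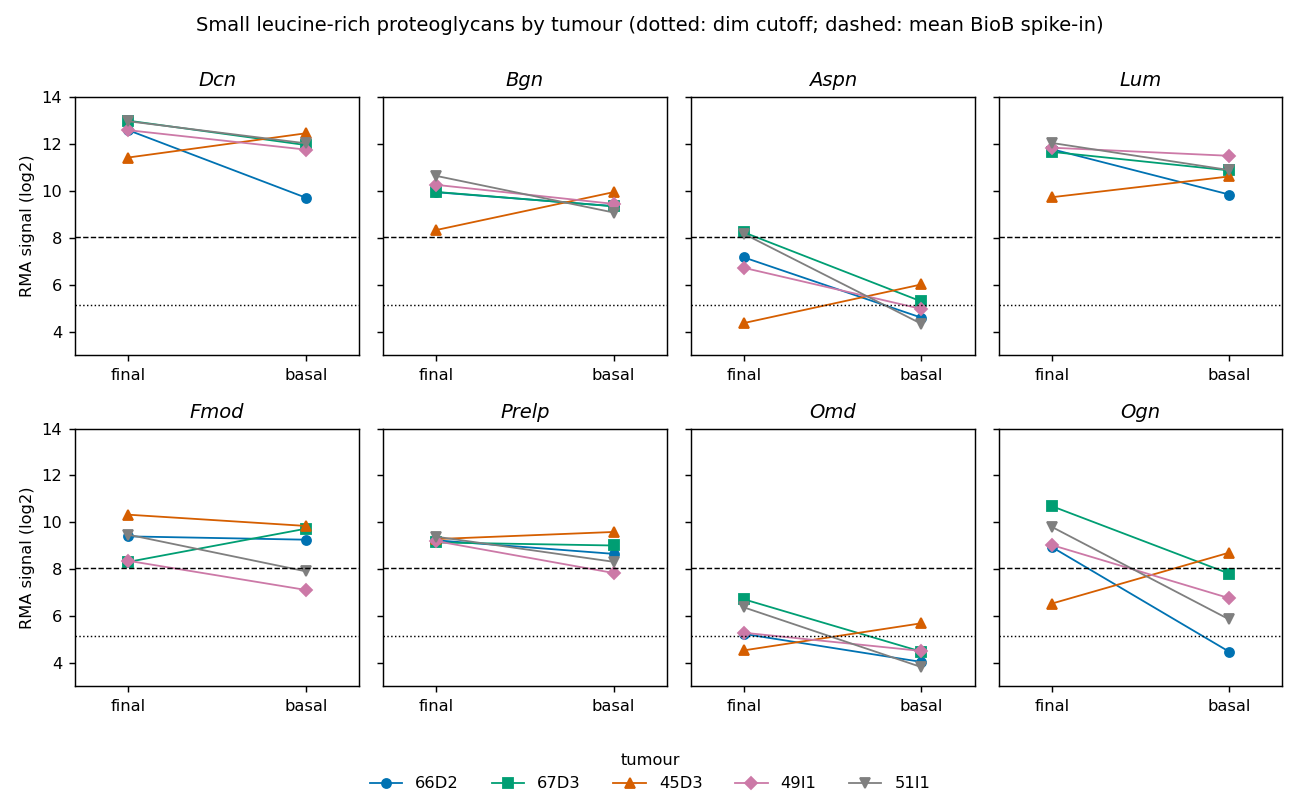
Log2 RMA signal (vertical axis) of the brightest probe set of each of the 8 measured members in final (left) and basal (right) arrays, with 1 line per tumour, a dotted line at the dim cutoff of 5.14 and a dashed line at the mean BioB signal of 8.04. The line of 45D3 falls towards the final side in 7 panels and lies at the top of the final arrays for Fmod.

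Lumican, a class II keratan sulphate proteoglycan of collagenous stroma, had final signals of 11.78 in 66D2, 11.67 in 67D3, 11.84 in 49I1, 12.05 in 51I1 and 9.73 in 45D3. Its basal signals were 9.85, 10.87, 11.50, 10.89 and 10.62. In the final arrays 45D3 lay far below the other 4 tumours, which were close to each other. The biopsy of 49I1, not of 45D3, was the highest, which set Lum apart from the other 7 members. The mean was 11.41 ± 0.95 in final and 10.74 ± 0.60 in basal arrays (SD, n = 5 each), a difference of 0.67 (SE 0.37), or 1.59-fold, and it was 1.06 without 45D3 and 0.35 without 66D2.

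Fibromodulin, a class II member that guides collagen cross-linking, did not follow the others. Its final signals were 9.40 in 66D2, 8.31 in 67D3, 8.36 in 49I1, 9.47 in 51I1 and 10.32 in 45D3. Its basal signals were 9.26, 9.73, 7.11, 7.91 and 9.84. Tumour 45D3 was the highest in both groups, and 67D3 was the tumour in which Fmod was lower in the final piece, by 1.42. The mean was 9.17 ± 0.85 in final and 8.77 ± 1.2 in basal arrays (SD, n = 5 each), with 2 basal arrays under BioB. The difference was 0.40 (SE 0.41), and it was 0.86 without 67D3, 0.19 without 49I1 and 0.11 without 51I1.

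Prolargin, which anchors basement membranes to the connective tissue beneath, had nearly the same signal in every final array: 9.23 in 66D2, 9.14 in 67D3, 9.20 in 49I1, 9.39 in 51I1 and 9.28 in 45D3. Its basal signals were 8.65, 9.01, 7.84, 8.31 and 9.59. The final range was 0.25 and the basal range 1.75. The mean was 9.25 ± 0.09 in final and 8.68 ± 0.67 in basal arrays (SD, n = 5 each). Of the genes tested, 93.3% had a larger SD over final arrays than Prelp and 10.1% had a larger SD over basal arrays. The difference was 0.57 (SE 0.25) and 0.37 without 49I1.

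Osteomodulin, a class II member best known from bone matrix, had final signals of 5.24 in 66D2, 6.71 in 67D3, 5.29 in 49I1, 6.37 in 51I1 and 4.54 in 45D3. Its basal signals were 4.04, 4.48, 4.51, 3.82 and 5.69. All 10 values lay under BioB, and 1 final and 4 basal values lay under the dim cutoff. The difference in dim signal was 1.12 (SE 0.51) in the fit without a dim filter, 1.69 without 45D3, and 0.50 with dim values raised to the cutoff.

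Osteoglycin (mimecan), the class III member and a small keratan sulphate proteoglycan, had the largest difference of the family. Its brightest probe set had final signals of 8.94 in 66D2, 10.69 in 67D3, 9.03 in 49I1, 9.81 in 51I1 and 6.53 in 45D3. The basal signals were 4.48, 7.81, 6.76, 5.86 and 8.71. The final pieces of 66D2, 67D3, 49I1 and 51I1 lay above every biopsy, and the final piece of 45D3 lay below the biopsies of 67D3, 49I1 and 45D3 itself. The mean was 9.0 ± 1.55 in final and 6.72 ± 1.65 in basal arrays (SD, n = 5 each), a difference of 2.28 (SE 0.92). It was 3.39 without 45D3, 1.73 without 66D2 and 2.14 with dim values raised to the cutoff. No fold is given, because 4 of the basal arrays lay under BioB.

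The other 3 probe sets of Ogn differed by 2.02 (SE 0.75), 2.35 (SE 0.83) and 1.94 (SE 0.75). With dim values raised to the cutoff these differences were 2.02, 1.85 and 1.17. The probe set at 2.35 had 3 basal arrays and 1 final array under the dim cutoff. That at 1.94 had 4 basal arrays and 1 final array under it. Over the 10 arrays the 4 probe sets correlated with each other at r = 0.976 to 0.998. In single tumours they disagreed by up to 1.85 in the size of the difference and never in its sign.

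**Figure D2:**
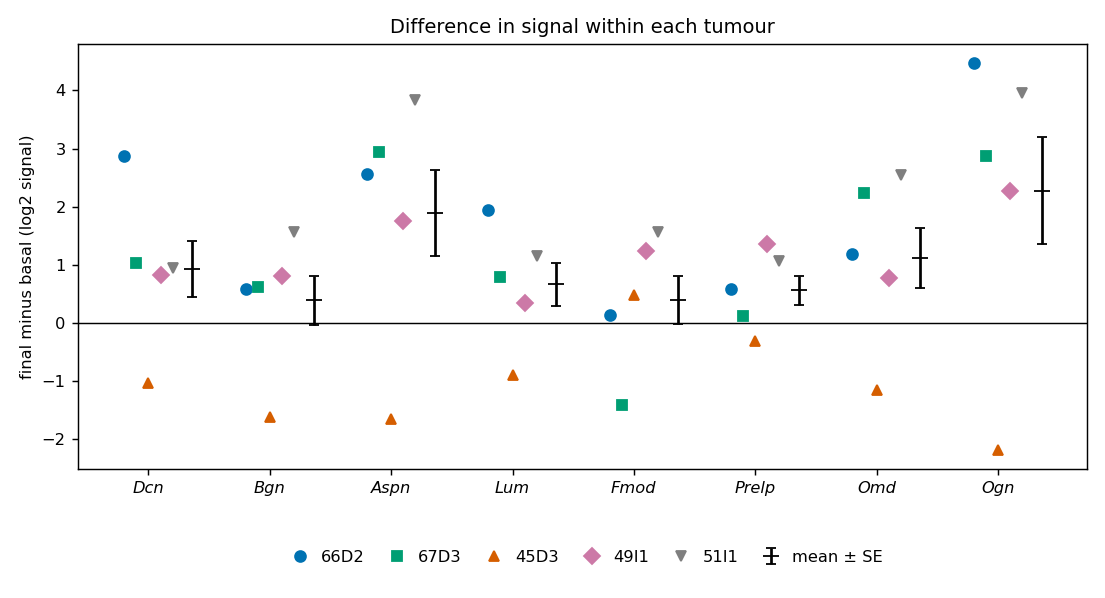
Final minus basal log2 signal (vertical axis) within each of the 5 tumours for each measured member (brightest probe set), with the mean and its SE from the limma fit in black. The point of 45D3 lies below 0 in 7 of the 8 genes and that of 67D3 lies below 0 only in Fmod.

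Within a tumour, most members moved in the same direction. In 66D2, 49I1 and 51I1 all 8 genes were higher in the final piece, with medians of 1.57, 1.04 and 1.56. In 67D3, 7 genes were higher and Fmod was lower, with a median of 0.92. In 45D3, 7 genes were lower and Fmod was higher, with a median of -1.09. Without Ogn and Aspn the medians were 1.36 in 51I1, 0.89 in 66D2, 0.82 in 49I1, 0.70 in 67D3 and -0.96 in 45D3, so the signs were the same. Over all genes tested the median was 0.04 in 45D3 and lay between -0.08 and 0.03 in the other tumours.

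Both arrays of 45D3 lay at the edge of their group. Its final piece had the lowest final signal in 6 of the 8 genes, where 16.0% of genes had theirs in that array. Its biopsy had the highest basal signal in 7 of the 8, where 23.8% of genes had theirs in that array. The exceptions were Fmod and Prelp among the final pieces and Lum among the biopsies. With 45D3 left out, a choice made after the values were seen, every final array lay above every basal array in 7 of the 8 genes. Fmod was the exception. Of all genes past the dim filter 2.00% were separated in this way, and of the 7 members past it 6 were. The members were picked by this contrast, so nothing is read from these counts. Without 45D3 the median difference was 1.24 over the 8 genes and 0.98 over the 6 other than Ogn and Aspn. The part of RNA quality in the biopsy of 45D3 was not tested. The biopsies of 45D3 and 67D3, those with the high hexokinase differences, were the highest and second highest basal arrays for Aspn, Fmod, Prelp and Ogn. This order was not seen in the other members. The share of all genes with this order was not counted, so nothing is read from it.

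Most of the family varied widely within each group. Over the final arrays, 0.876% of genes had a larger SD than Ogn and 0.821% than Aspn, and 45D3 was the lowest array for both. Prelp was the exception, with a larger final SD in 93.3% of genes. The biopsies, taken before any treatment, also differed. The SD over the 5 basal arrays was 1.65 for Ogn, 1.2 for Fmod and 1.08 for Dcn, where the median over genes was 0.25. Only 0.59% of the genes tested had a larger basal SD than Ogn, 1.89% than Fmod and 3.03% than Dcn. Bgn was nearest to a typical gene, with 36.3% of genes above it.

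Genes that neighbour each other in the genome had signals that went together across the arrays, and so did some pairs that lie apart. The following correlations are over 10 arrays from 5 tumours, which share tumours and are not independent, and they are given as a description. Ogn, Omd and Aspn correlated at r = 0.92 to 0.93. Prelp and Fmod correlated at r = 0.77, and Dcn and Lum at r = 0.79. Between chromosomes, Ogn and Dcn reached r = 0.90, Bgn and Aspn r = 0.84 and Bgn and Lum r = 0.80. Dcn and Lum were thus each more like a gene elsewhere than like each other. Fmod correlated with no member outside its cluster above r = 0.11, and with Lum at r = -0.45.

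**Figure D3:**
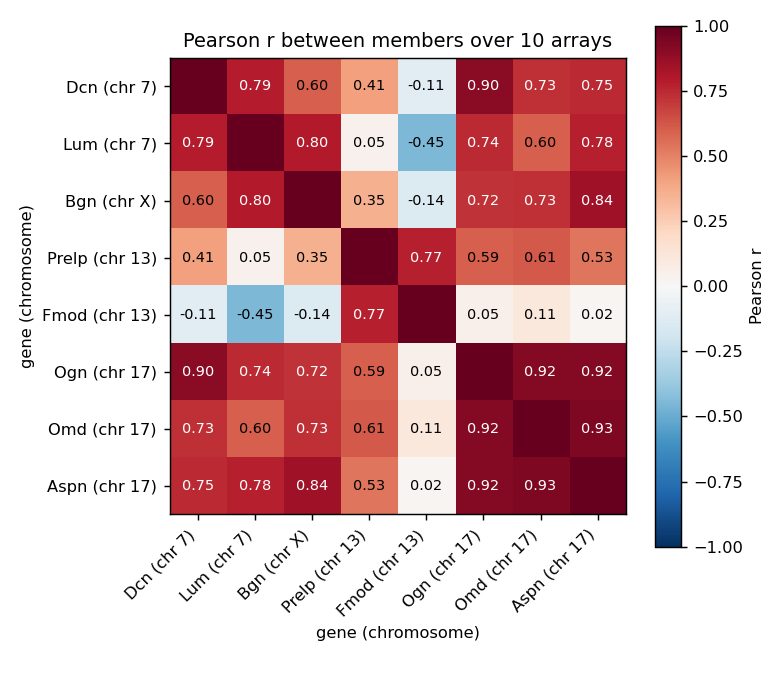
Pearson r over the 10 arrays between each pair of the 8 measured members (colour scale from -1 to 1, values printed), ordered by chromosome. The 3 genes of chromosome 17 form a block of 0.92 to 0.93, while Fmod stands near or below 0 with every gene but Prelp, its neighbour on chromosome 13.

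Ecm2, a secreted leucine-rich repeat protein, lies in the same stretch of chromosome 17 and was the gene most like Aspn of all 10839 others (r = 0.97). Ecm2 had final signals of 6.77 in 66D2, 8.48 in 67D3, 6.46 in 49I1, 8.38 in 51I1 and 4.43 in 45D3, and basal signals of 4.55, 4.90, 5.36, 4.83 and 6.49. It was thus higher in the final piece of 4 tumours and lower in 45D3, with a mean difference of 1.68 (SE 0.81). Likeness to Aspn on these same arrays carries that pattern with it. Ecm2 ranked 9 for likeness to Omd and 43 for likeness to Ogn, for which Omd ranked 20 and Aspn 24. On chromosome 13, Prelp ranked 29 for likeness to Fmod. Neighbourhood did not give such ranks everywhere: Lum ranked 256 for likeness to Dcn.

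The genes outside the family whose signals were most like the mean of the standardised members past the dim filter were Itgbl1, a secreted integrin beta-like protein (r = 0.96), and then Pcsk6, a proprotein convertase, Fabp4, the lipid carrier of adipocytes, Adamts5, an aggrecan-cleaving metalloprotease, and Igfbp7, an IGF-binding secreted protein (r = 0.95 each). All 5 were higher in the final piece of 4 tumours and lower in 45D3, by 1.06 (Adamts5) to 1.98 (Fabp4). They were picked for likeness to the members on these same arrays, so this pattern follows from the choice. The 3 most like Dcn were the collagen-degrading protease Ctsk, Tmem140 and the TGF-beta family receptor Acvrl1 (r = 0.95 to 0.96). Those most like Ogn were Heg1, the microfibril protein Mfap4 and Abi3bp (r = 0.96 each). After Ecm2, those most like Aspn were Fxyd1 and Pcsk6 (r = 0.96 each).

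Of the other proteoglycans of leucine-rich type, 6 of 8 listed genes were on the array and 3 passed the dim filter. The mean difference of Podn, podocan, was 0.39 (SE 0.45) over all tumours, 0.92 without 45D3, and -1.72 in 45D3. Tsku, tsukushi, differed by -0.02 (SE 0.19). Chad, Optc and Podnl1 were dim. Over the 7 lists of genes that build, bind or cut these proteoglycans, 0 of 96 genes tested passed the adjusted threshold with limma, and 0 with the methods' t-test. At an unadjusted p under 0.05 limma counted 6 higher and 1 lower, which is 7.29% of the 96, where 7.14% of all genes reached that level in either direction. The methods' t-test counted 4.

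Collagens that the proteoglycans bind had a median difference of 0.24, or 0.56 without 45D3, with 12 of 13 genes higher in the mean and 0 at an unadjusted p under 0.05. Within tumours the median was -0.75 in 45D3 against 0.46 to 0.94 in the other tumours. Col1a1 and Col1a2, the chains of type I collagen, differed by 0.65 (SE 0.54) and 0.61 (SE 0.44). Col16a1 and Col11a1 had the lowest differences, 0.08 and -0.16. The pattern of 4 tumours higher and 45D3 lower was present in 8 of the 13 collagens and in 8.34% of all genes. Enzymes of collagen cross-linking and processing had a median of 0.01, or 0.12 without 45D3, with 7 of 13 higher. In that list Loxl1, a lysyl oxidase, and Pcolce, which enhances procollagen cleavage, differed by 0.71 and 0.64, and the hydroxylases Plod2 and P4ha1 by -0.12 and -0.16.

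Enzymes that build the sugar chains had a median difference of 0.17, with 14 of 19 higher. Csgalnact1, which starts chondroitin chains, differed by 0.46 (SE 0.18), and Dsel, a dermatan epimerase homologue, by 0.44 (SE 0.29), while B4galt1 and B3galt6 differed by -0.29 and -0.14. Xylt2, which starts the linkage to the core protein, and the chondroitin sulphotransferase Chst12 differed by 0.29 and 0.28. Both are named here after their values were seen, because they and Csgalnact1 were the 3 of this list at an unadjusted p under 0.05. This list had a median above 0 in 5 of 5 tumours, 0.07 in 45D3 and 0.10 to 0.25 in the others.

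Proteases that cleave the core proteins had a median of 0.16, with 9 of 12 higher, and of 0.07 without 49I1 or without 67D3. Adamts5 was 8.45 ± 0.98 in final and 6.71 ± 0.92 in basal arrays (SD, n = 5 each), a difference of 1.74 (SE 0.63), and was the 1 gene of the list at an unadjusted p under 0.05. The cysteine protease Ctsk differed by 0.83 (SE 0.50), Mmp9 by -0.34 and Mmp12 by -0.11. Growth factors and receptors that the proteoglycans bind had a median of 0.16, with 16 of 22 higher, and it was 0.06 without 67D3 and 0.27 without 45D3. Itga1, the collagen-binding integrin alpha 1 chain, was higher in 5 of 5 tumours, by 0.55 (SE 0.14), and Bmp4 differed by 0.87. The basal mean of Bmp4, 5.01, lay under the dim cutoff, and it passed the filter through its final arrays. Ccn4 differed by -0.47 and Cd14, a co-receptor of Toll-like receptors, by -0.34. Egfr, a receptor bound by decorin, differed by 0.41 and is named after its values were seen, as the remaining gene at an unadjusted p under 0.05. The other proteoglycans had a median of 0.16, with 9 of 14 higher, from Esm1 at 0.89 and Gpc3 at 0.68 to Sdc4 at -0.15 and Srgn at -0.30.

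Markers of fibroblasts, the cells known to secrete these proteoglycans, moved with the family. Of 15 listed, 12 were tested and 11 of them were higher in the mean, with 0 past the adjusted threshold, 4 higher at an unadjusted p under 0.05, where 2.78% of all genes were, and a median difference of 0.85, or 1.35 without 45D3. The list median was -0.79 in 45D3 and 0.64 to 1.56 in the other tumours, and 10 of the 12 were higher in 4 tumours and lower in 45D3. Dpt, dermatopontin, and Mfap4 differed by 1.83 and 1.39, and Pdpn and Fbln1 by 0.11 and -0.01. The mean level of the list ranged from 6.92 to 8.70 in final and from 6.85 to 7.89 in basal arrays, and Tcf21 and Clec3b were under the dim cutoff in every array. The part of fibroblast content in the differences of the family was not tested.

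Adipocyte markers, of which 8 were tested, had a median of 0.83, or 1.19 without 45D3, with -0.81 in 45D3 and 0.14 to 2.71 in the others. Their mean level ranged from 5.83 to 8.80 in final and from 5.57 to 7.04 in basal arrays, and Lep was under the dim cutoff in every array. Adipoq, with a basal mean of 4.53 under the dim cutoff, passed the filter through its final arrays. Endothelial markers had a median of 0.41, or 0.68 without 45D3, with 9 of 10 higher, and were lower in 45D3 (-1.04) and 49I1 (-0.09). Leukocyte markers had a median of 0.23, or 0.63 without 45D3, and were lower in 45D3 (-0.83) and 67D3 (-1.11), while 7 of the 8 proteoglycans were higher in 67D3. Luminal and myoepithelial lists had medians of 0.04 and -0.02.

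Skeletal muscle markers did not divide the tumours as the family did. Of the 10 tested, 6 had a basal mean under the dim cutoff and passed the filter through their final arrays, so no count of higher genes is given. The median difference was 2.95 over all tumours. Within tumours it was 6.82 in 67D3, 4.46 in 66D2, 2.88 in 49I1, 0.35 in 45D3 and 0.23 in 51I1. Tumour 51I1 thus had the smallest median for muscle and the highest for the 6 proteoglycans other than Ogn and Aspn, with Ogn higher by 3.95 and Aspn by 3.84. Over all 8 proteoglycans the highest median was 1.57 in 66D2, where the muscle median was also high, next to 1.56 in 51I1. The mean level of the muscle list ranged from 4.96 to 11.56 in final and from 4.71 to 5.29 in basal arrays. Tendon and cartilage markers were mostly dim, with 2 of 10 listed genes tested, Scx (0.36) and Col2a1 (0.13). The part of muscle, fat and vessel content in the differences of the family was not tested.

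**Figure D4:**
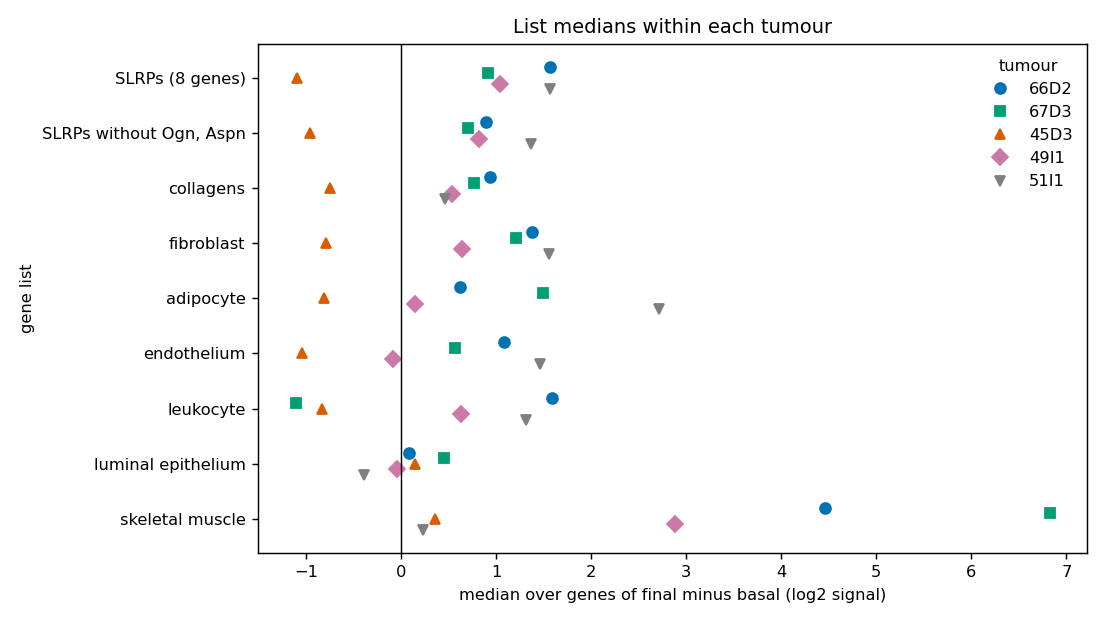
Median over genes of final minus basal log2 signal (horizontal axis) within each tumour for the 8 measured proteoglycans, for the 6 without Ogn and Aspn, for collagens and for 6 lists of cell type markers. For the proteoglycans, collagens, fibroblast and adipocyte markers 45D3 is below 0 and the other 4 tumours are above 0, while for skeletal muscle 67D3 is highest and 51I1 and 45D3 lie near 0.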

How the data were processed

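Biotin-labelled RNA of 10 pieces from 5 tumours was measured on Affymetrix rat arrays. RMA was run by the authors, as the submitters' processing notes and design text state, with a software version not given in the sources used here. Values in the deposited matrix were taken to be log2 from their range and near-equal medians. It holds 57 control probe sets despite the filter that the design text mentions, and they were removed here.

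Of 31042 other probe sets, the platform annotation gave 1 symbol to 20826, several to 436 and none to 9780. The dimmest 40% by mean over the arrays (below 5.14) were left out, which kept 18625 probe sets and 10839 genes. limma 3.58.1 under R 4.3.3 gave the differences, with each tumour a block, since the 2 pieces of a tumour carry the same identifier in the labels. The fit was tested on simulated data. As a check in the values, the correlation of deviations between final and basal arrays of the same tumour averaged 0.30, against -0.07 between different tumours, and was -0.16 in 45D3. A gene's probe set was its brightest. SE is limma's. The arrays give no depth, and their number limits the precision. RMA equalises the arrays, which would hide a shift in total RNA per cell.

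The members and gene lists were chosen with earlier results of these data known. Named genes are all members, the 5 genes most like the family's mean profile and the 3 most like each of Dcn, Ogn and Aspn by Pearson r, and the 2 highest and 2 lowest differences of each list (for marker lists not all are printed). Alternatives were other dim filters, median centring, quantile normalization, no block, a random block (statmod 1.5.0), array weights, probe set means, the methods' t-test for paired samples and leaving out each tumour.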

Additional observations from a re-analysis of the deposited data

Results flagged for a closer look

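Values of 5 samples were examined for 1 that stood far from the rest (a gap over 0.71 of the group's range), in 38 sets of 5, and 7 were found, where chance gives about 1 in 20. Among final arrays, 45D3 was lowest for Dcn (11.43, nearest 12.59) and for Lum (9.73, nearest 11.67). Among basal arrays, 66D2 was lowest for Dcn (9.71, nearest 11.76). Among differences, 45D3 was lowest for 2 probe sets of Ogn (-1.77, nearest 2.34, and -1.83, nearest 2.23). It was also lowest for the median difference of the 8 members (-1.09, nearest 0.92) and of the 6 without Ogn and Aspn (-0.96, nearest 0.70). The sets share arrays and are not independent.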

How the results depend on the processing

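For the 7 members past the dim filter, the difference stayed above 0 in all 104 values, from 15 alternatives each (14 for Aspn). Other dim filters, no block and a random block leave a gene's difference unchanged by construction. Probe set means do so for genes with a single probe set. The members were also picked for this difference, so nothing is read from the count. Omd has only the values given with it. The median of the members past the dim filter, 0.67 with all tumours, ranged from 0.47 to 1.15, and without Ogn and Aspn, 0.57 with all tumours, from 0.37 to 1.0. Leaving out each tumour in turn gave 0.47 to 1.06 and 0.37 to 0.90, with 7 of 7 members higher each time. Without 45D3 and 67D3 together, chosen after seeing the data, the medians were 1.15 and 1.0. Without the replicate block the medians were unchanged by construction. In all alternatives that gave a p, 0 probe sets passed the adjusted threshold. The count at an unadjusted p under 0.05, 1494 with limma, was 2276 with no dim filter (more probe sets tested), 3254 with array weights, 3131 without 45D3 and 67D3 and 1394 with the methods' t-test, and ranged from 795 (without 67D3; 833 without 66D2) to 3383 (without 45D3) when a tumour was left out. For the 96 pathway genes, 7 with limma, it was 4 with no replicate block, 4 with tumours as random effects, 28 with array weights, 4 with the methods' t-test, 31 without 45D3 and 67D3, and ranged from 3 (without 67D3; 4 without 66D2) to 33 (without 45D3). None of these passed the adjusted threshold. The collagen median, 0.24, was 0.71 with array weights, and that of the other proteoglycans, 0.16, was 0.06 with no dim filter. Of 102 list medians, 98 kept their sign; that of collagen cross-linking enzymes, 0.01, was -0.0099 after median centring, -0.0031 after quantile normalization, -0.0233 (without 67D3) to 0.1237 (without 45D3) when a tumour was left out, and -0.0059 without 45D3 and 67D3. The causes were not tested. Signals under BioB limit Aspn, Omd and the basal values of Ogn.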
